A study of Mus musculus with 6 samples.

Results

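The genes described here were 10 of the 47719 genes quantified by RNA sequencing (RNA-Seq) in prostates of irradiated mice. Of these, 6 were chosen for their role in skeletal muscle: the myogenic regulators Myod1, Myog, Myf6 and Pax7, and the acetylcholine receptor subunits Chrna1 and Chrng. The other 4, Mettl21c, Nctc1, Mlf1 and BC006965, were chosen by their FPKM in these same mice, which was higher in homozygous than in wildtype animals, so their levels are given as a description with no test. Mice of the strain B6.129S4-Trp53tm3.1Tyj/J were wildtype (Trp53+/+, mice 39 and 41), heterozygous (Trp53R270H/+, mice 37 and 40) or homozygous (Trp53R270H/R270H, mice 47 and 49) for the Trp53 R270H mutation. The animals were about 3 months old, and each of them, wildtype mice included, received 5 Gy of whole body irradiation 6 h before the prostate was taken, so no unirradiated mouse enters any comparison. The comparison of the 3 genotypes addresses how gene expression in the irradiated prostate differs with the number of mutant alleles. How the organ was dissected from the surrounding tissue is not given in the sources used here.

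Skeletal muscle is formed under the control of a small family of basic helix-loop-helix transcription factors, which pair with E proteins and bind the E-box, a short DNA motif written CANNTG. MyoD, encoded by Myod1, commits cells to the muscle lineage, myogenin (Myog) drives their differentiation, and MRF4 (Myf6) is the family member most abundant in adult fibres. Pax7 marks satellite cells, the stem cells that lie along the fibre. At the synapse between nerve and fibre, the acetylcholine receptor carries the alpha subunit encoded by Chrna1, together with the gamma subunit encoded by Chrng in the fetus and after denervation, which the epsilon subunit replaces in the adult. Mettl21c encodes a lysine methyltransferase of muscle. Nctc1 is a noncoding transcript of the Igf2 and H19 locus that is expressed in muscle. Mlf1 encodes myeloid leukemia factor 1, an adaptor protein found as a fusion partner in leukemia. BC006965 is a noncoding transcript.

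Since the regulators act through the E-box, the sequence upstream of the start site was read for the genes with an entry in the RefSeq promoter table (GRCm38.p6), which were 7 of the 10. Myod1, Myf6 and Mettl21c had no entry. Each window holds the 250 bases before the RefSeq start, 5′ to 3′ on the strand of the gene. The 5 windows with a match are shown, with capitals marking each CANNTG. This motif reads the same on both strands, and CAGCTG, a form that MyoD and myogenin are known to bind, is one of its forms and was counted separately.
Chrna1: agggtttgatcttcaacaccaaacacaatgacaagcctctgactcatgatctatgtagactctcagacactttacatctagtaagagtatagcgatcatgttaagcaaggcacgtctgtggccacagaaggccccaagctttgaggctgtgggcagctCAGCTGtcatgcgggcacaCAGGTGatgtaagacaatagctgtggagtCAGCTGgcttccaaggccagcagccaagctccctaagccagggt
Chrng: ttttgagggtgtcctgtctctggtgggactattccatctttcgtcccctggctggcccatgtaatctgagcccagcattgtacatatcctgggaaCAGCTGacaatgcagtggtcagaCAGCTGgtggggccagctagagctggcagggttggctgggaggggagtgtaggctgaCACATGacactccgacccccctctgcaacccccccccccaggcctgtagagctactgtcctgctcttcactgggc
Myog: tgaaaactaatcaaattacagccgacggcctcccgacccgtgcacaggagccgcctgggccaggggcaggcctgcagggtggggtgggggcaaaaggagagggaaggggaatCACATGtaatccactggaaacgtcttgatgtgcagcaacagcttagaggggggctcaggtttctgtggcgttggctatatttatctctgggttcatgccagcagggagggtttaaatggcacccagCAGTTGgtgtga
Nctc1: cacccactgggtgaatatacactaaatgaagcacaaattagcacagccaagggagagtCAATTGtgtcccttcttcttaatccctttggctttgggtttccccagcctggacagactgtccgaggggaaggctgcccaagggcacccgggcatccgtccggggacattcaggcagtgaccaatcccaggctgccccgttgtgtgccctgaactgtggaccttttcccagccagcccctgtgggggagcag
BC006965: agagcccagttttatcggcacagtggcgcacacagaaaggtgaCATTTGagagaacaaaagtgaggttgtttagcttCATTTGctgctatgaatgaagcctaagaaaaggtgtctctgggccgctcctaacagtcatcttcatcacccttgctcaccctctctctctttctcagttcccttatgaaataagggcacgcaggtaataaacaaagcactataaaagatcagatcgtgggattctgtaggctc
The windows lie at chr2:73580339-73580588 (minus strand) for Chrna1, chr1:87205561-87205810 (plus) for Chrng, chr1:134289754-134290003 (plus) for Myog, chr7:142558599-142558848 (minus) for Nctc1 and chr11:112711357-112711606 (minus) for BC006965. CANNTG was present in 5 of the 7 windows, those of Mlf1 and Pax7 being without it, and in 66.2% of the 32851 windows of this length in the table. CAGCTG was present in 2 of the 7 windows and in 13% of all windows. Both belong to the receptor subunits: in Chrna1 it begins 92 and 44 bases before the start, and in Chrng 155 and 132 bases before it. Chrna1 also holds CAGGTG 73 bases before the start, between its 2 CAGCTG motifs. In Myog, CACATG lies 138 and CAGTTG 12 bases before the start. For Chrng, BC006965, Pax7 and Myog the RefSeq start lies inside the gene as GENCODE M21 annotates it. The Pax7 window falls in annotated exons over all 250 bases, and the last 15 bases of the Myog window, which hold the CAGTTG, are exonic as well. A match is a run of letters and not a shown binding site.

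Relative to mouse 39, the number of sequenced fragments estimated from the spacing of the lowest values lay between 0.785 and 1.06, and 13452 to 13827 genes per mouse had at least 1 FPKM (fragments per length of exon and per number of mapped fragments). The epithelial keratins that check the labelled tissue were present in each mouse, with 134 to 189 FPKM for Krt8 and 351 to 462 FPKM for Krt18. Homozygous mouse 47 stood apart, with 257 FPKM of the prostate secretory gene Pbsn against 7329 or more in the others. Wildtype mouse 39 had a summed FPKM of 3493 over 8 seminal vesicle genes against 35210 or more in the others. Values are therefore given for each mouse. Where a homozygous ratio to wildtype is printed for one of the 10 genes, it is given with and without mouse 47.

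The values of Myod1 were in the order of the number of R270H alleles (chromosome 7, 46376474 to 46379099, plus strand; positions from GENCODE M21 on GRCm38). Wildtype mice 39 and 41 had 0.526 and 0.694 FPKM, heterozygous mice 37 and 40 had 1.40 and 1.29, and homozygous mice 47 and 49 had 1.79 and 2.07. No value overlapped between the 3 genotypes. The mean of the homozygous mice was 3.16-fold that of wildtype, or 3.39-fold with mouse 49 alone, and the heterozygous mean was 2.21-fold. In limma on log2(FPKM + 0.1), fitted to the 13818 genes with a mean of at least 1 FPKM, the difference between homozygous and wildtype mice was 1.52 (log2, standard error 0.317), with a Benjamini-Hochberg adjusted p of 0.136. It did not pass the threshold of 0.05, nor did heterozygous against wildtype (log2 difference 1.04, limma adjusted p = 0.547) or homozygous against heterozygous (0.48, limma adjusted p = 0.710). Myod1 reached a mean of 1 FPKM only through the heterozygous and homozygous mice. With a pseudocount of 1 in place of 0.1, the difference between homozygous and wildtype mice was 0.86.

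Myf6 was the most abundant of the myogenic regulators and had no higher mean with 2 mutant alleles than with 1 (chromosome 10, 107492853 to 107494737, minus strand). The wildtype animals had 4.06 and 5.37 FPKM, against 9.20 and 12.6 with 1 mutant allele and 9.80 and 9.22 with 2. Both mutant genotypes lay above wildtype, and their values overlapped each other. The difference from wildtype was 1.01 in homozygous mice (log2, standard error 0.211, limma adjusted p = 0.136) and 1.19 in heterozygous mice (standard error 0.211, limma adjusted p = 0.235), and neither passed the threshold. The homozygous mean was 2.02-fold that of wildtype, or 1.96-fold with mouse 49 alone. Between homozygous and heterozygous mice the difference was -0.18 (limma adjusted p = 0.798), and its sign turned, to 0.0464, without heterozygous mouse 40.

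Myog (chromosome 1, 134289989 to 134292548, plus strand) was scarcer than Myod1 in each of the 6 mice. Its FPKM was 0.337 and 0.217 in wildtype, 0.569 and 0.804 in heterozygous and 0.628 and 0.756 in homozygous animals. Mutant and wildtype values did not overlap, while those of the 2 mutant genotypes did. Their means were 2.48-fold and 2.50-fold that of wildtype in heterozygous and homozygous mice, or 2.73-fold with homozygous mouse 49 alone. Its mean was below 1 FPKM, so it was tested in a fit to the 26087 genes above 0 in any mouse, where the difference from wildtype was 1.08 in homozygous mice (standard error 0.355, limma adjusted p = 0.348) and 1.06 in heterozygous mice (limma adjusted p = 0.731). With a pseudocount of 1, these differences came to 0.41 and 0.40.

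The satellite cell gene Pax7 (chromosome 4, 139737062 to 139833528, minus strand) was close to the limit of what was measured. Wildtype mice 39 and 41 had 0.0633 and 0.00629 FPKM, the heterozygous mice had 0.0223 and 0.101, and the homozygous mice 0.0923 and 0.108. Both homozygous values lay above both wildtype values, and 1 heterozygous mouse was near the homozygous level while the other lay between the 2 wildtype mice. In the unfiltered fit the differences were 0.60 for homozygous against wildtype (limma adjusted p = 0.549) and 0.25 for heterozygous against wildtype (limma adjusted p = 0.933).

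The receptor subunits were also low. Chrna1 (chromosome 2, 73563215 to 73580338, minus strand) had 0.213 and 0.427 FPKM in the wildtype pair, 0.440 and 0.536 in the heterozygous pair and 0.554 and 0.634 in the homozygous pair. The genotypes did not overlap and were in the order of allele number, but the highest wildtype value, 0.427, and the lowest heterozygous value, 0.440, lay close to each other. The difference between homozygous and wildtype mice was 0.77 (standard error 0.382, limma adjusted p = 0.482 in the unfiltered fit). It was 0.395 without wildtype mouse 39 and 1.145 without wildtype mouse 41. Chrng (chromosome 1, 87204657 to 87212694, plus strand) was listed at 0 in both wildtype mice, heterozygous mouse 40 and homozygous mouse 49, at 0.0661 FPKM in heterozygous mouse 37 and at 0.0144 in homozygous mouse 47. No fold is given against wildtype, where a listed 0 may be a failed estimate, and the unfiltered fit gave limma adjusted p-values of 0.910 for homozygous and 0.866 for heterozygous against wildtype mice.

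**Figure D1:**
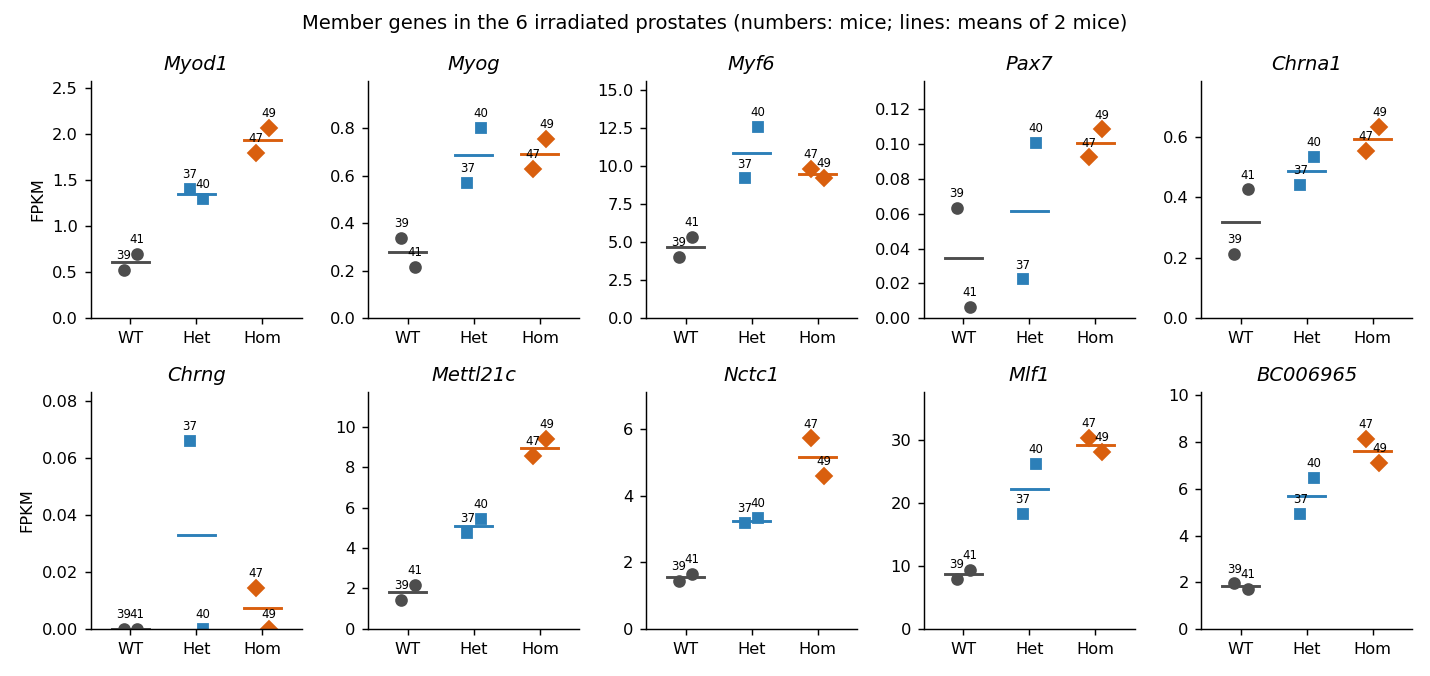
FPKM of the 10 genes in each mouse by genotype (WT, wildtype; Het, heterozygous; Hom, homozygous), with the number of each mouse at its point, lines at the mean of 2 mice and a separate linear scale from 0 in each panel. Both homozygous points lie above both wildtype points in each panel but that of Chrng, as for Mettl21c with 8.56 and 9.38 against 1.43 and 2.19 FPKM. This was so for 19.9% of the 26087 genes above 0 in any mouse. Mettl21c, Nctc1, Mlf1 and BC006965 were chosen for this contrast, so nothing is read from their panels.

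Among the 4 genes chosen for higher values in homozygous mice, Mettl21c was the furthest from wildtype (chromosome 1, 44009408 to 44020034, minus strand). Wildtype animals had 1.43 and 2.19 FPKM, heterozygous animals 4.76 and 5.43, and homozygous animals 8.56 and 9.38. The means, 1.81 ± 0.541, 5.10 ± 0.474 and 8.97 ± 0.583 FPKM (SD, n = 2 each), were 2.82-fold that of wildtype with 1 mutant allele and 4.96-fold with 2, or 5.19-fold with mouse 49 alone. Of the 10 genes it had the largest difference between homozygous and heterozygous mice on the log2 scale, at 0.81 (standard error 0.230).

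The noncoding transcript Nctc1 (chromosome 7, 142544609 to 142558596, minus strand) followed the same order of genotypes. The wildtype pair had 1.45 and 1.65 FPKM, the heterozygous pair 3.18 and 3.33, and the homozygous pair 5.73 and 4.60. Its mean was 2.10-fold that of wildtype in heterozygous and 3.33-fold in homozygous mice, or 2.97-fold with mouse 49 alone. BC006965, also noncoding (chromosome 11, 112663927 to 112781976, minus strand), had 1.95 and 1.71 FPKM without a mutant allele, 4.93 and 6.46 with 1 and 8.15 and 7.11 with 2. Its heterozygous mean, 3.11-fold that of wildtype, was the highest such ratio among the 9 genes with a wildtype value above 0, and its homozygous mean was 4.17-fold, or 3.89-fold with mouse 49 alone.

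Mlf1 (chromosome 3, 67374097 to 67400003, plus strand) was the most abundant of the 10 genes in each mouse. Its values were 7.98 and 9.33 FPKM in the wildtype pair, 18.3 and 26.2 in the heterozygous pair and 30.3 and 28.1 in the homozygous pair. The heterozygous mice differed from each other, at 22.2 ± 5.60 FPKM (SD, n = 2), but did not reach the homozygous values of 29.2 ± 1.57. Its homozygous mean was 3.37-fold that of wildtype, or 3.24-fold with mouse 49 alone. Annotated genes overlap Mettl21c (the pseudogene Gm15838) and Mlf1 (Gm17402, on the opposite strand), and both were listed at 0 in each mouse.

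**Figure D2:**
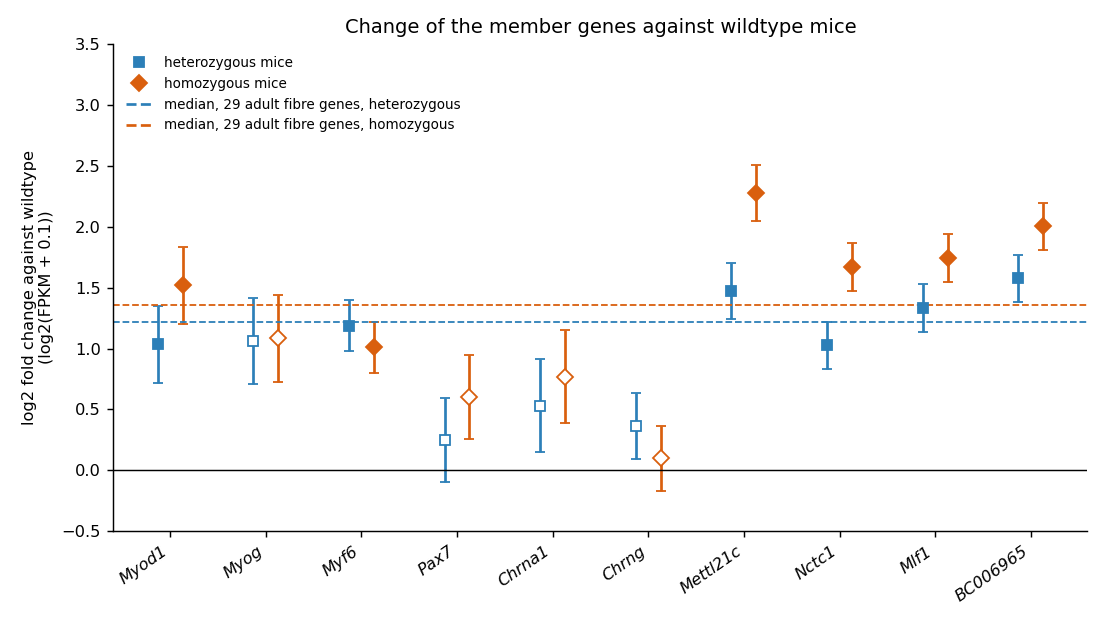
Difference of the heterozygous (squares) and homozygous (diamonds) mice from wildtype for each of the 10 genes, as log2 fold change of FPKM + 0.1 with bars of 1 standard error from limma, filled for genes with a mean of at least 1 FPKM and open for the others, and dashed lines at the median of 29 tested adult muscle fibre genes. Mettl21c and BC006965 lie furthest above the homozygous line of 1.36, at 2.28 and 2.0, and Myf6 lies below it at 1.01. Mettl21c, Nctc1, Mlf1 and BC006965 were chosen for their homozygous values, so nothing is read from their place.

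Counted together, both homozygous values exceeded both wildtype values for 9 of the 10 genes, the exception being Chrng. This was so for 19.9% of the 26087 genes above 0 in any mouse, and as 4 of the 10 were chosen for this contrast, nothing is read from the count for them. Of the 6 genes chosen for their role, 5 had it. These 6 were also chosen with earlier results of these data known, so their counts and median in this paragraph are a description. Both heterozygous values exceeded both wildtype values for 8 of the 10 genes (17.7% of all genes), Pax7 and Chrng being the exceptions, and both homozygous values exceeded both heterozygous values for 6 (16.1% of all genes). The same 6, Myod1, Chrna1, Mettl21c, Nctc1, Mlf1 and BC006965, were ordered by allele number with no overlap across the 3 genotypes, as were 2.82% of all genes, and as 4 of them were chosen for their homozygous values, nothing is read from these counts for them either. Of the 6 role-named genes, both heterozygous values exceeded both wildtype values for 4, and both homozygous values exceeded both heterozygous values for 2, Myod1 and Chrna1, which are also those ordered across the 3 genotypes. The median log2 difference of the 6 role-named genes in the unfiltered fit was 0.89 between homozygous and wildtype mice and 0.78 between heterozygous and wildtype mice, against 0 over all genes of that fit. Across the transcriptome few genes passed the adjusted threshold with 2 mice per genotype: 53 of 13818 (0.384%) between homozygous and wildtype mice, 0 (0%) between heterozygous and wildtype mice and 2 (0.0145%) between homozygous and heterozygous mice. At an unadjusted p under 0.05 in limma, 2483, 949 and 883 genes respectively passed, of which those higher with more mutant alleles were 8.65%, 4.66% and 1.97% of the genes tested. In the unfiltered fit 0.0153%, 0% and 0.00767% of 26087 genes passed the adjusted threshold. No role-named gene passed the adjusted threshold in any of the 3 contrasts or under any alternative tested, scaling to fibre genes not being among them. The lowest adjusted p from limma among them, 0.0846, was that of Myod1 in homozygous against wildtype mice, with a prior without intensity trend. That fit held the genes with a mean of at least 1 FPKM, which Myod1 reached only through the mutant mice. In the unfiltered fit the limma adjusted p of Myod1 in this contrast was 0.222.

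By mean FPKM over the 6 mice, which is per length and so comparable between genes, the order was Mlf1 (20.0), Myf6 (8.37), Mettl21c (5.29), BC006965 (5.05), Nctc1 (3.32), Myod1 (1.29), Myog (0.552), Chrna1 (0.467), Pax7 (0.0655) and Chrng (0.0134). Mettl21c and BC006965 were not separated, Mettl21c being the higher in 3 of 6 mice. Myf6 exceeded Mettl21c in 5 of 6 mice, the exception being homozygous mouse 49. Of neighbours in this order, only Chrna1 and Pax7 had ranges over the 6 mice that did not meet.

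Genes with a profile over the 6 mice like that of the 10 were also sought. Likeness was taken as Pearson's r between log2(FPKM + 0.1) and the mean standardized profile of the 10 genes over the 6 mice, which share libraries and genotypes, and is a description with no test. As 4 of the 10 were chosen for a higher level in homozygous mice, the order of the genotypes in genes picked in this way is set by the choice. Among the 10, r with their own mean was 0.992 for Mlf1, 0.991 for BC006965, 0.977 for Mettl21c, 0.973 for Myod1 and 0.969 for Nctc1, and lowest for Pax7 (0.627) and Chrng (0.253). The 8 genes most alike had r between 0.993 and 0.999. They were Enpp2, which encodes the secreted enzyme autotaxin, Lrrc14b, Tmod1, which caps actin thin filaments, the G protein subunit gene Gng7, Trdn, which encodes triadin of the calcium release complex, Apobec2, Ckmt2, the mitochondrial creatine kinase of striated muscle, and Klhl31. Trdn had the mean levels 4.90, 11.2 and 14.7 FPKM in wildtype, heterozygous and homozygous mice, and Apobec2 10.03, 26.1 and 30.2. Enpp2 varied less, with 13.1, 18.4 and 20.4 FPKM. An r of at least 0.9 was found for 467 of the 13818 tested genes (3.38%).

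The summed level of adult muscle fibre genes was also above wildtype in the mutant mice. Summed over 33 genes of the contractile and metabolic apparatus of the fibre, the wildtype pair had 2740 and 3924 FPKM, the heterozygous pair 7432 and 7867, and the homozygous pair 9232 and 8042, so that the mean was 2.30-fold that of wildtype with 1 mutant allele and 2.59-fold with 2. No gene of this list was at 0 in every mouse. Both homozygous values exceeded both wildtype values for 31 of the 33 genes (19.9% of all genes), the exceptions being Myh7 and Tnnc1, which were named after their values were seen. In each of these exceptions, mouse 47 lay below both wildtype mice (0.0443 and 0.134 FPKM) and mouse 49 above them (1.745 and 2.685). Examples of the genes above wildtype are Acta1, the skeletal actin gene, at 592, 1301 and 1434 FPKM in wildtype, heterozygous and homozygous mice, and Ckm, muscle creatine kinase, at 366, 911 and 952. Of its 29 tested genes, 1 passed the adjusted threshold, Cacna1s, the calcium channel of the T-tubule, which rose from 5.27 FPKM in wildtype to 16.3 in homozygous mice (log2 difference 1.61, standard error 0.121, limma adjusted p = 0.0175). That call was lost without mouse 39 (limma adjusted p = 0.145), 37 (0.138), 40 (0.143) or 47 (0.120), and in the unfiltered fit (0.0665). At an unadjusted p under 0.05, 27 of the 29 were higher in homozygous and 27 in heterozygous mice than in wildtype, against 8.65% and 4.66% of all tested genes. In whole prostate RNA, a different number of muscle cells and a different amount of each transcript per cell cannot be told apart.

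Set beside the 29 tested fibre genes, whose median log2 difference between homozygous and wildtype mice was 1.36, Myod1 (1.52) exceeded 22 of them and Myf6 (1.01) 2. Myod1 passed the filter only through the heterozygous and homozygous mice, so nothing is read from its place in this or the other contrasts. The 4 genes chosen for this contrast had 2.28 (Mettl21c), 2.0 (BC006965), 1.74 (Mlf1) and 1.67 (Nctc1), and since the choice used these values, nothing is read from their place. In heterozygous against wildtype mice, where the fibre median was 1.22, Myod1 (1.04) exceeded 7 and Myf6 (1.19) 13, and the 4 chosen genes had 1.47 (Mettl21c), 1.58 (BC006965), 1.33 (Mlf1) and 1.03 (Nctc1). Between homozygous and heterozygous mice the fibre median was 0.15, and Myod1 (0.48) exceeded 28 of the 29 and Myf6 (-0.18) 0, beside 0.81 for Mettl21c, 0.64 for Nctc1, 0.43 for BC006965 and 0.41 for Mlf1.

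The values were also divided by the summed fibre FPKM of the same mouse, which was itself higher in the mutant mice, so that ratios to wildtype become smaller for any gene. Mettl21c came to 0.521 and 0.558 FPKM per 1000 FPKM of fibre genes in the wildtype pair, 0.641 and 0.690 in the heterozygous pair and 0.927 and 1.17 in the homozygous pair, still in the order of alleles without overlap. BC006965 came to 0.711 and 0.436, 0.663 and 0.821, and 0.882 and 0.884 in the same order of mice. For Myod1 the wildtype pair had 0.192 and 0.177, the heterozygous pair 0.189 and 0.164, and the homozygous pair 0.194 and 0.257, so that mouse 47 hardly exceeded wildtype mouse 39. On this scale the homozygous values of Myf6, 1.06 and 1.15, lay below the wildtype values of 1.48 and 1.37. Both homozygous values exceeded both wildtype values for 5 of the 10 genes on this scale, in place of 9. These were Myod1, Mettl21c, Nctc1, Mlf1 and BC006965. Both heterozygous values exceeded both wildtype values for Mettl21c alone. The share of all genes was not computed on this scale. Mettl21c, Nctc1, Mlf1 and BC006965 were chosen for their homozygous values, so nothing is read from these counts or from the order of these genes. The part of the summed fibre level in the differences of the 10 genes was not tested.

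**Figure D3:**
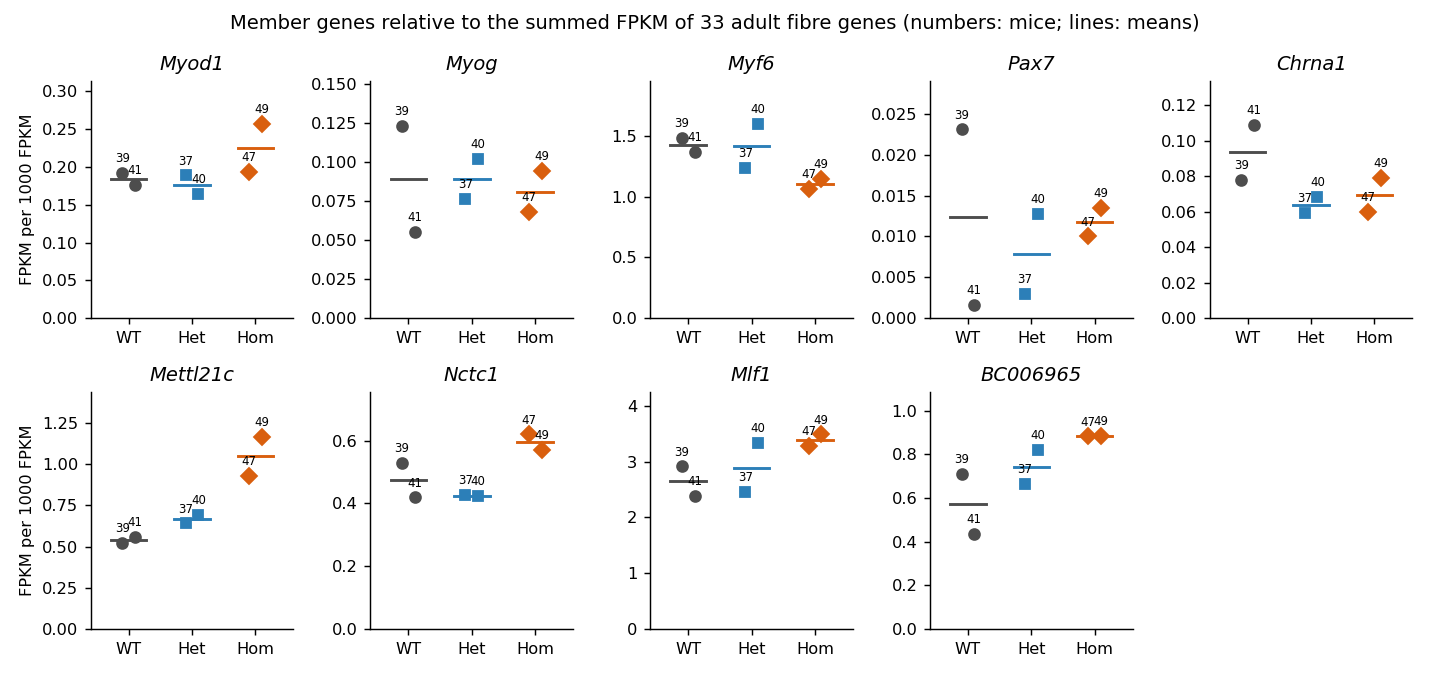
FPKM of 9 of the genes (all but Chrng) per 1000 FPKM summed over 33 adult fibre genes in the same mouse, by genotype, with the number of each mouse at its point and lines at the mean of 2 mice. Mettl21c has 0.521 and 0.558 in wildtype and 0.927 and 1.17 in homozygous mice, and the homozygous points of Myf6 lie below those of wildtype. Mettl21c was chosen for its homozygous values, so nothing is read from its order of genotypes.

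Other genes of the myogenic programme, taken from lists of textbook members, gave no gene past the adjusted threshold. Of 14 further myogenic regulators, 10 were tested, with a median log2 difference of 0.38 between homozygous and wildtype mice, against -0.04 over all tested genes, and 3 were higher at an unadjusted p under 0.05 (8.65% of all tested genes). Of the 3, Vgll2 had a wildtype mean under 1 FPKM and passed the filter only through the mutant mice, so nothing is read from the count or the median. Among the most abundant, Mef2d, a partner of the family, had 25.1, 26.0 and 25.2 FPKM in wildtype, heterozygous and homozygous mice, and the E protein genes Tcf12 and Tcf3 had 17.2, 14.8 and 17.5 and 16.4, 17.0 and 15.9. Mef2c, named after its values were seen, had 6.44, 11.3 and 14.3 FPKM (homozygous against wildtype 1.14, limma adjusted p = 0.0869). Myf5, the early member of the family, had 0.0443, 0.0875 and 0.186 FPKM and was not tested.

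At the synapse, 9 of 12 genes were tested, the median difference between homozygous and wildtype mice was 0.45, and 4 were higher at an unadjusted p under 0.05 (8.65% of all tested genes). Of the 4, Rapsn and Dok7 had a wildtype mean under 1 FPKM and passed the filter only through the mutant mice, so nothing is read from these numbers either. Ache, the acetylcholinesterase gene, had 9.06, 18.9 and 21.4 FPKM in wildtype, heterozygous and homozygous mice (1.18, limma adjusted p = 0.155), and Etv5, a transcription factor of synaptic nuclei, 2.57, 3.40 and 3.61. Agrn, which encodes agrin, had 28.1, 27.0 and 27.1, and Utrn, which encodes utrophin, 5.05, 5.14 and 4.93. Among other receptor genes, named after their values were seen, the delta subunit gene Chrnd had 0.181, 0.347 and 0.350 FPKM, and the adult epsilon subunit gene Chrne 0.707, 0.673 and 1.09. Chrne thus had a higher mean than Chrng in each genotype. Of 9 genes that respond to denervation, 8 were tested and 2 were higher at an unadjusted p under 0.05 in homozygous than in wildtype mice (8.65% of all tested genes), with a median of 0.20. Sln, which encodes sarcolipin, had 15.4, 32.3 and 33.7 FPKM, and the ubiquitin ligase gene Trim63 3.01, 6.64 and 7.41, while Gadd45a had 25.9, 23.1 and 18.0 and Fbxo32 20.5, 21.6 and 24.3.

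Of 9 further genes expressed in satellite cells, both homozygous values exceeded both wildtype values for 5 (19.9% of all genes) and were below them for 1. The 5 genes tested had a median difference of 0.05 between homozygous and wildtype mice, and 1 was higher at an unadjusted p under 0.05 (8.65% of all tested genes), while in the unfiltered fit the median of all 9 was 0.30. Itga7 had 4.74, 6.47 and 6.75 FPKM, Ncam1 6.23, 5.74 and 6.46, Sdc4 72.3, 62.2 and 51.2, and Chodl 4.41, 3.78 and 3.30, and several of these are also expressed outside muscle. Among the scarce markers, named after their values were seen, Cdh15 had 0.175, 0.490 and 0.489 FPKM, Megf10 0.0787, 0.152 and 0.197, and Fgfr4 0.321, 0.637 and 0.445, with both mutant genotypes above wildtype and no test. Calcr, also scarce and not tested, had 0.0231, 0.0671 and 0.029 FPKM, and its homozygous values overlapped those of wildtype. Of the 5 developmental fibre genes, 4 were tested, with a median of 1.10. Of the 4, Myl4 had a wildtype mean under 1 FPKM and passed the filter only through the mutant mice, so nothing is read from this median. In the unfiltered fit the median of all 5 was 1.1. Myh8, the perinatal myosin, had 9.46, 28.8 and 29.4 FPKM (1.66, limma adjusted p = 0.102), and Actc1, the actin of heart and fetal muscle, 22.5, 47.3 and 47.3. The embryonic myosin gene Myh3, named after its values were seen, stayed at or below 0.0386 FPKM in each mouse.

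**Figure D4:**
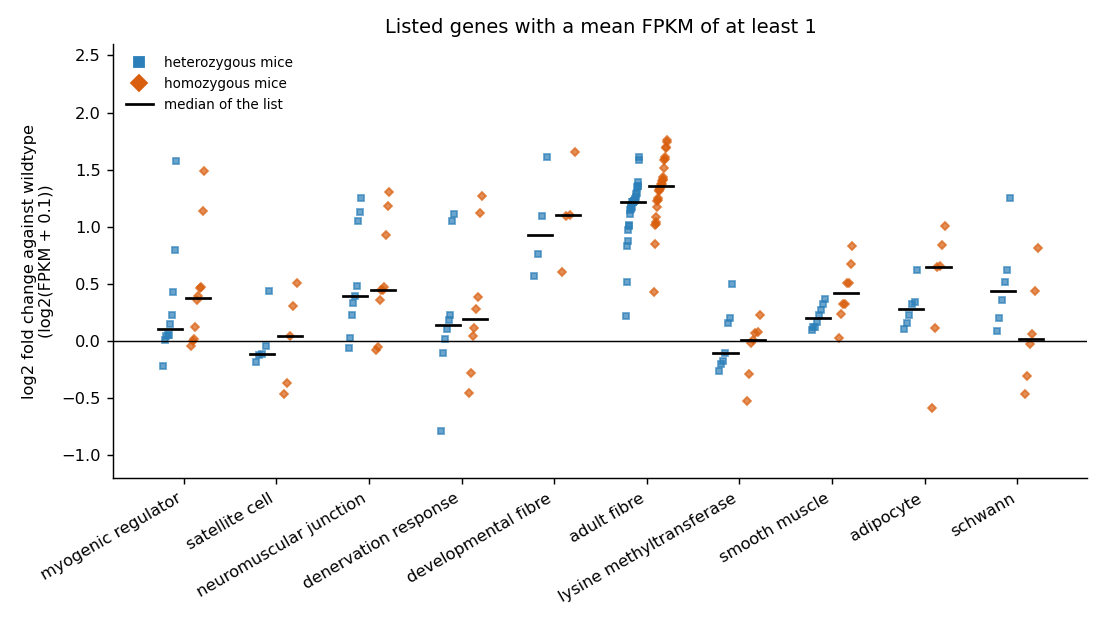
Log2 fold change of FPKM + 0.1 against wildtype for each tested gene of 10 lists (those of the Igf2 and H19 region, Mlf1 partners, heart, prostate and seminal vesicle are not plotted), in heterozygous (squares) and homozygous (diamonds) mice, with a line at the median of each list. The adult fibre genes have medians of 1.22 and 1.36 and the developmental ones 0.93 and 1.10, and the next highest median plotted, 0.65, is that of the adipocyte genes in homozygous mice. Myl4 of the developmental list, Vgll2 of the regulators, and Dok7 and Rapsn of the synapse passed the filter only through the mutant mice.

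Relatives and chromosomal neighbours of the genes chosen for higher values were measured as well. Of 8 methyltransferase genes related to Mettl21c, 7 were tested, with a median of 0.01 between homozygous and wildtype mice, and Mettl21a had 7.28, 6.44 and 5.03 FPKM, Mettl21b 9.32, 8.57 and 7.60, Vcpkmt 9.25, 8.0 and 9.30 and Mettl23 16.8, 18.8 and 17.8. For Mlf1, its paralog Mlf2 had 134, 135 and 109 FPKM, and Nrbp1 and Cops3, whose proteins bind Mlf1, had 36.1, 37.0 and 29.7 and 29.7, 27.6 and 29.1. Sox9 begins 248 bases from the annotated 5′ end of BC006965, the 2 genes pointing away from each other, and had 35.5, 31.4 and 30.7 FPKM. Around Nctc1, 9 of 11 genes were tested and 5 were higher (8.65% of all tested genes) and 1 lower at an unadjusted p under 0.05 between homozygous and wildtype mice, with a median of 0.59, the fast troponin genes Tnnt3 (318, 756 and 820 FPKM) and Tnni2 (216, 503 and 546) among them. Lsp1 had 15.9, 22.3 and 23.9 FPKM and Ctsd 575, 544 and 359. H19, a noncoding RNA whose 3′ end lies 16933 bases upstream of Nctc1 and which was named after its values were seen, had 8.73, 17.8 and 26.0 FPKM (1.59, limma adjusted p = 0.0853), and Igf2 had 4.21, 6.30 and 4.07.

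Markers of other cells were measured beside these genes. The cardiac genes Myh6, Nppa and Mybpc3 stayed at or below 0.137 FPKM in each mouse, and the fourth, Tnni3, had 5.93, 5.30 and 5.21 FPKM. Smooth muscle genes (8 of 8 tested, none past the adjusted threshold) summed to 1516 and 1803 FPKM in the wildtype, 2031 and 1664 in the heterozygous and 2500 and 1687 in the homozygous pair, which overlapped. Adipocyte genes (6 of 6 tested, none past the adjusted threshold) summed to 288 and 169, 248 and 302, and 434 and 313, and Schwann cell genes (6 of 6 tested, none past the adjusted threshold) to 81.3 and 76.0, 104 and 110, and 74.0 and 97.6. The homozygous sums of the adipocyte genes exceeded those of the other genotypes, and their part in the differences of the 10 genes was not tested. Prostate genes summed to 69030 and 54690 FPKM in the wildtype, 62030 and 40440 in the heterozygous and 36300 and 32810 in the homozygous pair, with no gene of 12 past the adjusted threshold (median difference between homozygous and wildtype mice -0.52). Sbp was listed at 19590 FPKM in mouse 41, 24770 in mouse 37 and 0 in the other 4 mice, and without it the sums were 69030 and 35100, 37260 and 40440, and 36300 and 32810. Of 8 seminal vesicle genes, 1 passed it, Svs2 (limma adjusted p = 0.0477), which was listed at 0 in both homozygous mice, and a listed 0 may be a failed estimate. The median difference of the 8 from wildtype was 3.43 in homozygous and 1.99 in heterozygous mice, and their summed FPKM, 49410 in wildtype mouse 41, lay between 35210 and 64610 in the heterozygous and homozygous mice. In homozygous mice the differences ran from -14 to 3.78, and both values exceeded both wildtype values for 1 of the 8 (19.9% of all genes). For Svs1, Svs3a, Svs3b and Svs6, mouse 47 was the highest and mouse 49 lay below wildtype mouse 41, as for Svs3a with 7321 and 46.5 against 324 FPKM.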

How the data were processed

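The study prepared stranded mRNA libraries (TruSeq) from total RNA of snap-frozen prostates, sequenced read pairs, aligned them to GRCm38 (mm10) with HISAT and quantified genes with Cufflinks. The submitters' processing notes also name bcl2fastq and Cuffnorm. Tool versions and the annotation are not given in the sources used here. The authors deposited gene-level FPKM for each mouse, a unit that corrects for gene length and for mapped fragments, so fragment counts and the counting error of single values are unknown.

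The 10 genes and the lists were chosen with earlier results of these data known. Named are these 10, the 4 most abundant genes and every called gene of each list, and the 8 genes of most similar profile, and any other gene was named after its values were seen. Some genes under this rule are not reported here. Mice were grouped by their labels, and wildtype, heterozygous and homozygous mice (2 each) were compared in 1 fit. Here limma 3.58.1 in R 4.3.3 (lmFit, eBayes with an intensity trend) was run on log2(FPKM + 0.1), a scale that understates changes of low genes, for the 13818 genes with a mean of at least 1 FPKM, with Benjamini-Hochberg adjustment over all of them and a threshold of 0.05. The residual degrees of freedom were 3, with 2.77 from the prior. Genes below the filter were taken from the same fit to all 26087 genes above 0 in any mouse. The fit was tested on simulated data. Tables and figures were made in Python 3.11.15. Alternatives were pseudocounts of 1 and 0.01, no filter, a mean of at least 5 FPKM, quantile normalization, median scaling, a prior without trend, scaling to fibre genes, and leaving out each mouse. Positions are from GENCODE M21 on GRCm38, promoter sequences from RefSeq on GRCm38.p6.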

Additional observations from a re-analysis of the deposited data

How the results depend on the processing

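No paired analysis was possible because the labels give the mice no shared replicate numbers. The 53 genes called between homozygous and wildtype mice became 4 without a filter and 23 with a prior without intensity trend, and 4 to 128 when 1 mouse was left out (7 without mouse 39, 96 without 41, 4 without 37, 5 without 40, 4 without 47 and 128 without 49). Between heterozygous and wildtype mice, 0 genes were called under each alternative with all mice, and 0 to 2 with 1 mouse left out (1 without 39, 2 without 41, 1 without 47 and 1 without 49). Between homozygous and heterozygous mice, the 2 genes called became 1 with a pseudocount of 0.01 and 1 at a mean of at least 5 FPKM, and 0 to 54 with 1 mouse left out (0 without 37 or 40, 4 without 41, 5 without 47 and 54 without 49). The causes were not tested.

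Both homozygous values exceeded both wildtype values for 9 of 10 genes. With a mouse left out, this count was 9 or 10 (10 without mouse 49, where Chrng enters). Leaving out a wildtype or homozygous mouse can only keep or raise this count, and a heterozygous mouse does not enter it. Nothing is therefore read from its values with a mouse left out. After scaling to the summed adult fibre genes the count was 5, with no share of all genes computed. That scaling turned the log2 difference from wildtype in homozygous mice to -0.0515 for Myog, -0.36 for Myf6 and -0.35 for Chrna1, in heterozygous mice to -0.061 for Myod1, -0.0166 for Myf6, -0.17 for Pax7, -0.45 for Chrna1 and -0.14 for Nctc1, and homozygous against heterozygous mice to -0.12 for Myog. Of 360 other values of the 10 genes, 7 had another sign, each from leaving out a mouse. Without each mouse in turn, the difference between homozygous and heterozygous mice ranged from -0.20 (without mouse 37) to 0.24 for Myog, with -0.096 without mouse 49, from -0.40 to 0.0464 (without 40) for Myf6, from -0.0026 (without 37) to 0.71 for Pax7 and from -0.63 to 0.097 (without 37) for Chrng, and that between heterozygous and wildtype mice from -0.11 (without 40) to 0.61 for Pax7, with -0.060 without 41. For a further 5 values the fold change itself, not its log2, moved by a factor of over 1.5, all with another pseudocount. Among them was Pax7 between homozygous and wildtype mice, whose log2 difference went from 0.60 to 1.67 with 0.01. None of the 6 role-named genes passed the adjusted threshold under these settings, the scaling to fibre genes aside, for which no test is given.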
